A study of Homo sapiens with 12 samples.

Results

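The comparison described here set the mean of 3 HRAS-derived human breast epithelial lines against the line they came from. Its members were chosen by line: NeoT, T1 and CA1, each weighted equally whatever its depth, were averaged and contrasted with A10 across all genes, and genes that passed the test with the same sign in all 3 derived lines were called common. NeoT is MCFNeoT (benign hyperplasia), T1 is MCFT1 (atypical hyperplasia), CA1 is MCFCA1 (invasive cancer), and A10 is MCF10A, which does not form tumours. The stages in brackets are those of the series design, which also calls the 4 lines triple-negative and gives 3 biological replicates for each. All 12 libraries of the series entered the contrast, 9 of them from derived lines, and 3395 of 14417 tested genes were common (23.5%). No treatment, dose or time is given in the labels. MCFNeoT arose from MCF10A that received an activated HRAS, and T1 and CA1 descend from it through growth as xenografts, so the 3 derived lines share an ancestry and are not 3 separate transformations. Each stage is represented by a single line. The p-values therefore measure the spread between replicate libraries of these lines, and a difference that goes with HRAS cannot be told apart from any other difference between 1 parent line and its descendants.

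HRAS is a small GTPase that, when bound to GTP, activates the RAF, MEK and ERK kinases. ERK activity raises transcripts of its own inhibitors, among them the dual-specificity phosphatases (DUSP genes) and Sprouty proteins (SPRY genes), which act as negative feedback, and of growth factors that signal through the EGF receptor. In mammary epithelium, basal cells are marked by cytokeratins such as KRT5 and KRT14 and by TP63, and luminal cells by KRT8 and KRT18.

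Values are CPM, computed from a gene's estimated counts and the library total scaled by TMM, and differences are log2 fold changes of derived lines over A10. Library totals ran from 18032399 to 35730423 counts, and between 12663 and 13906 genes per library reached 10 counts. T1 replicate 1 stood apart in its cytoplasmic rRNA, at 7.76% of counts against 0.954% to 2.18% in the other 11 libraries. The biological coefficient of variation was 16.0% in NeoT, 8.34% in T1, 6.42% in CA1 and 8.6% in A10. Epithelial identity differed within the derived group: the summed level of 26 epithelial junction genes ran from 714 to 790.3 CPM in NeoT libraries, 6855 to 6986 CPM in T1 and 6523 to 6701 CPM in CA1, against 4188 to 4387 CPM in A10. E-cadherin (CDH1) stood at 0.691 ± 0.452 CPM in NeoT, 645 ± 23 CPM in T1 and 362 ± 12.3 CPM in CA1, against 313 ± 16.3 CPM in A10 (SD, n = 3 each), so NeoT was nearly without this defining epithelial marker. Of the receptors that define triple-negative cells, PGR had 0 counts in all 12 libraries, ESR1 averaged between 0 and 1.20 CPM in a line, and ERBB2 stood at 58.5 ± 4.21 CPM in NeoT, 199.6 ± 10.4 CPM in T1 and 202 ± 11.1 CPM in CA1, against 77.8 ± 3.93 CPM in A10. Where a gene had 0 counts in all libraries of a line, its level was bounded by 3 counts for that line, which is 0.0474 CPM in NeoT, 0.0357 CPM in T1, 0.0463 CPM in CA1 and 0.0326 CPM in A10, and the fold is written as at least the value this bound allows. Such bounds, and the intervals of ratios, hold counting error and nothing else.

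In the averaged contrast 9622 genes passed (66.7%): 4373 of 14417 genes were higher in the derived lines (30.3%) and 5249 were lower (36.4%), by edgeR's quasi-likelihood test at a Benjamini-Hochberg adjusted p under 0.05. A change of at least 2-fold by the fitted value was seen for 1325 of the higher genes (9.19% of all tested) and 2088 of the lower ones (14.5%). Genes common to NeoT, T1 and CA1 were fewer: 1515 were higher in each (10.5%) and 1880 lower in each (13.0%). Taken line by line, 33.7% of genes were higher and 36.7% lower in NeoT, 26.0% and 25.9% in T1, and 34.4% and 36.5% in CA1. The 3 comparisons share the A10 libraries, so an excess or deficit in A10 enters all of them. At least 2-fold in every derived line, 387 genes were higher (2.68%) and 643 lower (4.46%). At 4-fold these counts were 150 and 308, and at 8-fold 72 and 201. In 1407 of the 1515 higher and 1836 of the 1880 lower common genes, the 9 derived libraries did not overlap the 3 A10 libraries. Over all genes tested, 1670 lay wholly above A10 (11.6%) and 2288 wholly below it (15.9%). Of the common genes, 26 had 0 counts in A10 and 65 had 0 counts in all 3 derived lines.

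These counts rest on the spread between libraries. With the mean of each line as the unit, no gene passed by limma (0 higher and 0 lower, smallest adjusted p = 0.118), although 230 higher and 430 lower genes had an unadjusted p under 0.05, and with a single mean for the 9 derived libraries, whose spread then holds the differences among lines, edgeR called 1375 higher and 1541 lower. Tested by glmTreat against a 2-fold change, 790 higher and 1486 lower genes passed in the averaged contrast, and 203 higher and 398 lower genes were common. Leaving out T1 replicate 1 and NeoT replicate 3 (the libraries with the highest rRNA share and the lowest depth) gave 1576 common higher and 2029 common lower genes.

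Common did not mean equal. Among NeoT, T1 and CA1, 12018 genes differed (83.4% of those tested; edgeR's F test of the 3 means), and this held for 1305 of the common higher genes (86.1%) and 1485 of the common lower ones (79.0%). T1 lay closest to A10: the median log2 fold change of common higher genes was 1.08 in NeoT, 0.70 in T1 and 1.12 in CA1, and that of common lower genes was -1.29, -0.84 and -1.28 in the same order. The largest of the 3 changes was in T1 for 12.5% of common higher and 10.3% of common lower genes. At the edge of the definition, IP6K2, an inositol phosphate kinase, was just inside with a largest adjusted p of 0.0497, and RFFL just outside with 0.050.

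HRAS itself and several feedback genes of the MAPK pathway were higher in all 3 derived lines. HRAS (chr11:532242-535576, GRCh38) stood at 261, 239.5 and 218 CPM in NeoT, 170.4, 157 and 147 CPM in T1 and 289, 305 and 312 CPM in CA1, against 61.7, 62.0 and 69.8 CPM in A10. Every derived library lay above every A10 library, with CA1 highest and T1 lowest of the derived lines. The averaged log2 fold change was 1.80 ± 0.07 (SE), adjusted p = 1.11e-13 by edgeR's quasi-likelihood test. The counts do not separate mutant from normal HRAS transcript. RRAS, a relative with roles in adhesion, was also higher, by 4.48-fold in NeoT, 1.39-fold in T1 and 2.37-fold in CA1. NRAS was not common and did not pass in the average, at -0.13 ± 0.10 (SE), adjusted p = 0.285 (edgeR), though it did without NeoT replicate 3 (-0.20, adjusted p = 0.00418). Of 22 genes of the RAS and MAPK cascade, 2 were common higher, HRAS and RRAS (9.09%, against 10.5% of all genes), and 1 common lower (4.55%, against 13.0%). The lower one was MAP2K1, which encodes MEK1 and had log2 fold changes of -0.89 in NeoT, -0.16 in T1 and -1.39 in CA1.

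Of 20 genes of MAPK feedback and output, 9 were common higher (45%, against 10.5% of all genes) and 1 common lower. The median averaged log2 fold change of the 20 was 0.81, against -0.04 over all genes tested. DUSP4, a nuclear phosphatase that inactivates ERK, had 1092, 1129 and 1057 CPM in NeoT, 446, 466 and 445 CPM in T1 and 1224, 1244 and 1193 CPM in CA1, against 107, 114 and 106 CPM in A10. The derived libraries lay above A10 without overlap, and T1 stood lowest of the derived lines. Its averaged log2 fold change was 2.95 ± 0.05 (SE), adjusted p = 2.98e-18 (edgeR). DUSP5, another nuclear ERK phosphatase, was higher by 3.55-fold in NeoT, 2.45-fold in T1 and 5.51-fold in CA1, and DUSP6, its cytoplasmic counterpart, by 2.99-fold in NeoT, 1.31-fold in T1 and 1.93-fold in CA1.

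SPRY2, which restrains signalling from receptors to RAS, had 68.8, 61.5 and 68.2 CPM in NeoT, 63.1, 58.9 and 64 CPM in T1 and 63.6, 67.9 and 71.3 CPM in CA1, against 24.9, 22.2 and 23.1 CPM in A10. Its 9 derived libraries lay close together and all above A10. The averaged log2 fold change was 1.48 ± 0.07 (SE), adjusted p = 1.87e-12, and the F test among derived lines gave an adjusted p of 0.295 (edgeR), which does not show that they are equal. The related SPRY4 was higher in each but unevenly, by 6.99-fold in NeoT, 1.55-fold in T1 and 1.27-fold in CA1. PHLDA1, EPHA2, EPHA4 and the potassium channel gene KCNN4 completed the 9; EPHA2, a receptor tyrosine kinase, rose by 1.77-fold in NeoT, 2.10-fold in T1 and 6.63-fold in CA1. DUSP7 fell in each line. The 10 members that were not common included SPRY1, with log2 fold changes of -1.20 in NeoT, 0.32 in T1 and 1.72 in CA1, and the cyclin gene CCND1, with 0.27 in NeoT, 1.78 in T1 and -0.40 in CA1.

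Among EGF receptor ligands, EREG and AREG were higher. EREG (epiregulin) stood at 166 ± 20.5 CPM in NeoT, 49.7 ± 0.969 CPM in T1 and 282 ± 1.79 CPM in CA1, against 29.8 ± 3.22 CPM in A10 (SD, n = 3 each), and AREG (amphiregulin) was higher by 2.03-fold in NeoT, 1.46-fold in T1 and 1.47-fold in CA1. They were the 2 common members of 12 tested genes for this receptor family (16.7%, against 10.5% of all genes). In NeoT, 8 of the 12 were called lower and 2 higher. The calls were 1 lower and 9 higher in T1, and 2 lower and 7 higher in CA1. EGFR itself had an averaged log2 fold change of -0.02 ± 0.08 (SE), adjusted p = 0.848 (edgeR). Of 18 immediate early genes, 4 were common higher (22.2%, against 10.5% of all genes) and 1 lower (5.56%, against 13.0%). NR4A1, an orphan nuclear receptor, stood at 7.02 ± 1.19 CPM in NeoT, 6.52 ± 1.39 CPM in T1 and 4.03 ± 0.426 CPM in CA1, against 0.438 ± 0.0476 CPM in A10 (SD, n = 3 each). The 3 others encode AP-1 or related factors: FOSB rose by 5.2-fold in NeoT, 2.81-fold in T1 and 4.40-fold in CA1, FOS by 2.24-fold in NeoT, 4.36-fold in T1 and 1.83-fold in CA1 and ATF3 by 1.94-fold in NeoT, 5.38-fold in T1 and 18.9-fold in CA1. SRF, the transcription factor that drives many immediate early genes, was the lower one. Of 19 PI3K and RAL effector genes, 0 were common higher and 1 common lower (5.26%), PIK3R2, a regulatory subunit of PI3K.

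**Figure D1:**
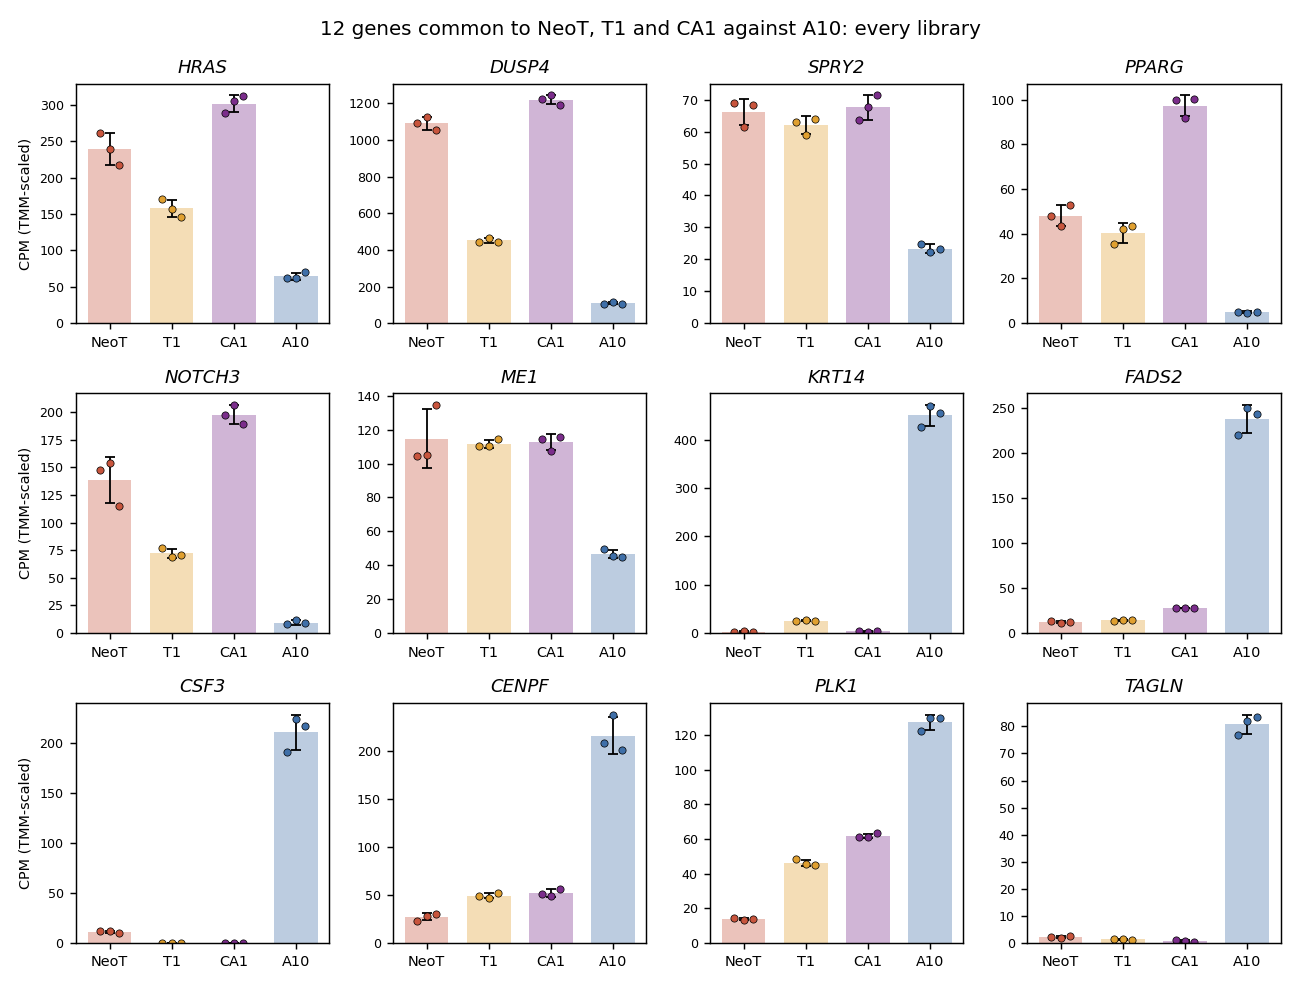
Level of 12 common genes in every library, in CPM on linear axes that start at 0; points are libraries, bars are line means and whiskers are the SD of 3 libraries. In HRAS, DUSP4, SPRY2, PPARG, NOTCH3 and ME1 the 9 derived libraries lie above A10, and in KRT14, FADS2, CSF3, CENPF, PLK1 and TAGLN below it.

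Transcripts of DNA replication and cell division were lower in all 3 derived lines. Of 30 S phase and mitosis genes, 27 were common lower (90.0%, against 13.0% of all genes) and 0 higher, and in the averaged contrast all 30 were called lower, with a median log2 fold change of -1.56. The summed level of the 30 ran from 966.5 to 1030.0 CPM in NeoT, 1653 to 1685 CPM in T1 and 1201 to 1205 CPM in CA1, against 3096 to 3204 CPM in A10. CENPF, a kinetochore protein of mitosis, had 23.3, 27.9 and 30.6 CPM in NeoT, 48.6, 47.0 and 52.1 CPM in T1 and 50.7, 49.0 and 56.5 CPM in CA1, against 208, 238 and 201 CPM in A10. All derived libraries lay far below A10, with NeoT lowest. The averaged log2 fold change was -2.39 ± 0.07 (SE), adjusted p = 1.51e-15 (edgeR). PLK1, a kinase that drives mitotic entry and exit, had 14.2, 13.2 and 13.6 CPM in NeoT, 48.2, 45.6 and 44.9 CPM in T1 and 61.0, 60.9 and 63.1 CPM in CA1, against 122, 129.9 and 129.7 CPM in A10. The 3 derived lines were ordered NeoT, T1, CA1 from low to high, all below A10, and the averaged log2 fold change was -1.91 ± 0.05 (SE), adjusted p = 6.34e-16 (edgeR).

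RRM2, the small subunit of ribonucleotide reductase, stood at 49.0 ± 4.49 CPM in NeoT, 84.2 ± 3.0 CPM in T1 and 22.8 ± 1.18 CPM in CA1, against 144 ± 5.88 CPM in A10 (SD, n = 3 each), with CA1 lowest and T1 nearest to A10, and MCM3, a subunit of the replicative helicase, followed the same order with log2 fold changes of -1.87 in NeoT, -0.57 in T1 and -2.55 in CA1. MKI67 (Ki-67), a marker of proliferation, was lower by 5.74-fold in NeoT, 2.12-fold in T1 and 2.74-fold in CA1. TYMS, which makes thymidylate, was lower by 3.27-fold in NeoT, 2.36-fold in T1 and 3.57-fold in CA1. The 3 members that were not common were CCNE2, CDT1 and E2F1, with averaged log2 fold changes of -2.18, -0.26 and -0.86. The averaged call of CDT1 was lost without A10 replicate 2 (adjusted p = 0.121, edgeR) and without A10 replicate 3 (adjusted p = 0.0589, edgeR). In bulk libraries, fewer dividing cells and less of these RNAs per cell cannot be told apart, and how densely the cultures were growing is not given in the labels. Among 18 CDK inhibitor and p53 target genes, 4 were common higher (22.2%, against 10.5% of all genes) and 1 common lower (5.56%, against 13.0%). BBC3 (PUMA, a promoter of apoptosis) was among the higher ones, up by 4.04-fold in NeoT, 1.71-fold in T1 and 2.95-fold in CA1. The lower one was the CDK inhibitor CDKN2C, with log2 fold changes of -0.77 in NeoT, -1.02 in T1 and -2.27 in CA1.

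Many mitotic promoters carry a cell cycle element known as the CHR, here searched as TTTGAA on both strands in the 300 bases around the start (250 before and 50 after) of RefSeq promoters of GRCh38.p14. A promoter entry was found for 11091 of 14417 tested genes, and 9.79% of them held the letters. The share was 14.1% in common lower genes (208 of 1473) and 7.57% in common higher genes (92 of 1215), and of the 23 common lower S phase and mitosis genes with an entry, 10 held it (43.5%). The AP-1 motif (TGANTCA, both strands) was in 4.03% of common higher, 4.89% of common lower and 4.88% of all promoters, and an ETS motif (CCGGAA, both strands) in 30.5%, 25.7% and 28.9%. Among common genes changed at least 2-fold in each line, the ETS share was 22.1% of the higher (60 of 272, SPRY2 among these genes). It was 15.4% of the lower (74 of 479). AP-1 and CHR matches can share letters, and none of the promoters shown holds an AP-1 match. A match is a description and not a bound site. The promoters of CENPF, PLK1, CDC20 and MKI67 are shown because these genes fell in all 3 derived lines and hold the CHR letters, and that of SPRY2 because it rose to a similar level in each and holds the ETS letters; capitals mark every match to the 3 motifs, 5′ to 3′ on the gene's strand.
CENPF (chr1:214602945-214603244, plus strand): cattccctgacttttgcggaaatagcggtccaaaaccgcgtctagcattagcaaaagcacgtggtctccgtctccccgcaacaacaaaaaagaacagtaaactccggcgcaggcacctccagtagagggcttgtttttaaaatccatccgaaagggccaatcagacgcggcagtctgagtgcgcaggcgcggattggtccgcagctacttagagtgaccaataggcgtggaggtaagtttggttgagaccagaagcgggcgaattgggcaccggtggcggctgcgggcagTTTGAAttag
PLK1 (chr16:23678639-23678938, plus strand): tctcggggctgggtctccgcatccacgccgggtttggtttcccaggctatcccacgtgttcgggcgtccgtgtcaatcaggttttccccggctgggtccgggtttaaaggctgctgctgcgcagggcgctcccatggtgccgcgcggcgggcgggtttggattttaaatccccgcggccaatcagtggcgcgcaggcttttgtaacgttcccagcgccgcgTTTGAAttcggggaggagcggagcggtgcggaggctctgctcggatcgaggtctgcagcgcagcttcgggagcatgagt
CDC20 (chr1:43358731-43359030, plus strand): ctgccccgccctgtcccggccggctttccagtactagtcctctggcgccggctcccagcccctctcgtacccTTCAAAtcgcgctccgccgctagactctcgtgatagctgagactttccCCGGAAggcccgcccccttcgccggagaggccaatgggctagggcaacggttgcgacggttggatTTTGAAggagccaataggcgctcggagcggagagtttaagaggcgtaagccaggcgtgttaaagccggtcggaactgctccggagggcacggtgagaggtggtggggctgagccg
MKI67 (chr10:128126374-128126673, minus strand): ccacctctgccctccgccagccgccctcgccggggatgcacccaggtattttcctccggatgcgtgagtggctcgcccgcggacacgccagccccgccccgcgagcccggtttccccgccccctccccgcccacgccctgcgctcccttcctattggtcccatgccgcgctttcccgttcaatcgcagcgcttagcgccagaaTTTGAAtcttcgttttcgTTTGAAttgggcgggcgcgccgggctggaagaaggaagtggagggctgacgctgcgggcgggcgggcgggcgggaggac
SPRY2 (chr13:80341077-80341376, minus strand): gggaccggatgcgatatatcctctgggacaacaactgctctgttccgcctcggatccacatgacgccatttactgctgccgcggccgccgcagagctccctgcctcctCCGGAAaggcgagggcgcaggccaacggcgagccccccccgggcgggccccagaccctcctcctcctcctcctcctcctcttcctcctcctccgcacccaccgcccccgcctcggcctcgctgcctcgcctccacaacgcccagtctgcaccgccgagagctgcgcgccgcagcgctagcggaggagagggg
CDC20, an activator of the anaphase-promoting complex, was lower by 5.86-fold in NeoT, 2.71-fold in T1 and 2.20-fold in CA1, and the values of the other 4 genes are given above.

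Some genes common to all 3 derived lines had no counts at all on one side of the comparison, and others were detected in every library at very different levels. The 12 genes per direction described next were picked by their fitted fold change in the line where it was smallest, among protein-coding genes with at least 10 CPM in some line and no overlap with A10. Where a line had 0 counts the fitted value depends on the model's prior count, so the pick does not rank those genes by size. EPDR1, an ependymin-related glycoprotein, had 35.2, 33.1 and 33.0 CPM in NeoT, 42.4, 39.2 and 40.0 CPM in T1 and 15.4, 21.2 and 16.3 CPM in CA1, against 0 CPM in each library of A10. All derived libraries held it and no A10 library did, which makes it at least 1037-fold higher in NeoT, at least 1242-fold in T1 and at least 544-fold in CA1. LY75 (the endocytic receptor DEC-205) had 52.5, 56.9 and 69.0 CPM in NeoT, 107, 106 and 116 CPM in T1 and 69.0, 61.8 and 65.7 CPM in CA1, against 0.0503, 0 and 0 CPM in A10. With 2 counts in A10, its ratio was 2694 in NeoT (95% counting interval 745 to 22250), 5027 in T1 (1391 to 41520) and 2997 in CA1 (829 to 24750).

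LAMA4, a laminin chain of vascular and fat tissue basement membranes, stood at 152 ± 22.4 CPM in NeoT, 25.9 ± 1.57 CPM in T1 and 351 ± 4.19 CPM in CA1, against 0.202 ± 0.217 CPM in A10 (SD, n = 3 each). It was detected in every library and was higher by 624-fold in NeoT, 107-fold in T1 and 1448-fold in CA1. GSPT2, a translation termination factor with the close relative GSPT1, had 0 counts in A10 and was at least 108-fold higher in NeoT, at least 355-fold in T1 and at least 262-fold in CA1. TNXB, a tenascin of the extracellular matrix whose reads can be shared with its partial copy TNXA, was higher by 128-fold in NeoT, 56.6-fold in T1 and 47.3-fold in CA1. DHRS9, a retinol dehydrogenase, was higher by 22.3-fold in NeoT, 129-fold in T1 and 202-fold in CA1, GDA (guanine deaminase) by 68.8-fold in NeoT, 27.4-fold in T1 and 20.4-fold in CA1 and C9orf64 by 36.5-fold in NeoT, 34.8-fold in T1 and 52.5-fold in CA1.

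For the remaining 4 of the 12, a single line held most of the signal. GJA1 (connexin 43, a gap junction protein) stood at 0.841 ± 0.353 CPM in NeoT, 0.345 ± 0.204 CPM in T1 and 20.7 ± 1.25 CPM in CA1, against 0 CPM in A10, and ATG9B, an autophagy protein, at 0.193 ± 0.144 CPM in NeoT, 0.277 ± 0.273 CPM in T1 and 17.3 ± 2.55 CPM in CA1, against 0 CPM in A10: both were highest in CA1, averaged under 1 CPM in NeoT and T1, and had 0 counts in A10. The gel-forming mucin MUC5B was highest in T1, at 32.5 ± 1.19 CPM, against 0.468 ± 0.404 CPM in NeoT and 1.11 ± 0.928 CPM in CA1, with 1 count in A10. The lipid droplet coat gene PLIN1 was highest in NeoT, at 10.5 ± 2.42 CPM in NeoT, 0.739 ± 0.0903 CPM in T1 and 4.21 ± 0.994 CPM in CA1, against 0.0409 ± 0.0708 CPM in A10.

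PDPN (podoplanin, a mucin-like membrane glycoprotein; chr1:13583757-13617957, GRCh38) was among the lower genes. It had 0 CPM in all 9 derived libraries, against 44.6, 46.5 and 47.4 CPM in A10. No read was assigned to it in the 9 derived libraries, which makes it at least 971-fold lower in NeoT, at least 1289-fold in T1 and at least 993-fold in CA1. The same absence from all 9 derived libraries held for C2orf43 (17.4 ± 1.52 CPM in A10), the transcription factor gene FLI1 (12.8 ± 0.125 CPM), LARGE, a glycosyltransferase of dystroglycan (12.7 ± 1.17 CPM), and EEF1A2 (12.2 ± 2.19 CPM), a translation elongation factor closely related to EEF1A1. PCSK1N, an inhibitor of a prohormone convertase, had 1 count in CA1, 0 in NeoT and T1, and 27.2 ± 2.54 CPM in A10.

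The other lower genes of this set kept a few reads in the derived lines. FGFR3, a fibroblast growth factor receptor, had 0.131, 0 and 0.058 CPM in NeoT, 0 CPM in each library of T1 and 0 CPM in each library of CA1, against 77.8, 91.1 and 92.9 CPM in A10. Only 2 NeoT libraries held any of its reads, and it was at least 2410-fold lower in T1 and at least 1855-fold lower in CA1. The transcription factor gene SOX7 stood at 0.111 ± 0.157 CPM in NeoT, 0.033 ± 0.0317 CPM in T1 and 0.0375 ± 0.065 CPM in CA1, against 64.4 ± 4.07 CPM in A10 and S100A7 (psoriasin, made by stressed squamous epithelium) at 0.0436 ± 0.0755 CPM in NeoT, 0 CPM in T1 and 0.0515 ± 0.0569 CPM in CA1, against 37.8 ± 2.33 CPM in A10. CALML3, a calmodulin-like protein of epithelium, NIPAL4 and PNMAL1 had at most 3 counts in any derived line, against 17.8 ± 2.35, 12.3 ± 0.98 and 12.7 ± 1.15 CPM in A10.

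**Figure D2:**
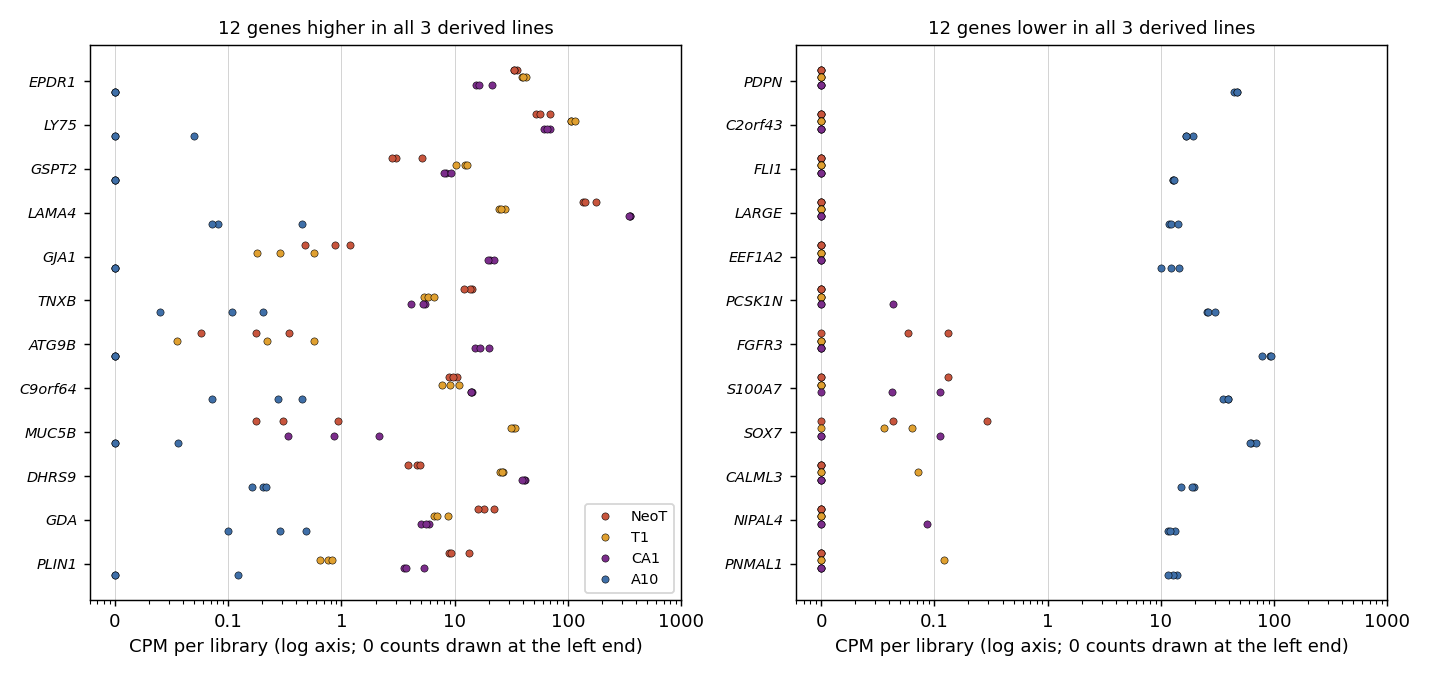
CPM of the 12 common higher (left) and 12 common lower (right) genes with the largest smallest change, 1 point per library on a log axis, with libraries at 0 counts drawn at the left end. On the left the derived libraries stand right of A10, and on the right the derived libraries sit at or near 0 while A10 lies between 9.98 and 92.9 CPM.

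A further set of genes changed at least 2-fold and did not differ among the derived lines by the F test: 16 higher and 42 lower, among those with at least 10 CPM in some line and no overlap with A10. Not passing that test does not show that the lines are equal. Genes at or near 0 in every derived line left it little to detect, so the 16 and the 42 do not tell how evenly genes rose or fell. PGPEP1, a pyroglutamyl peptidase, led the higher ones with 45 ± 2.28 CPM in NeoT, 42.7 ± 0.458 CPM in T1 and 46.2 ± 4.84 CPM in CA1, against 11.6 ± 0.161 CPM in A10, an averaged log2 fold change of 1.94 ± 0.08 (SE), adjusted p = 2.86e-13 (edgeR). ZNF22, a zinc finger gene, followed with 1.79 ± 0.16 (SE), adjusted p = 1.11e-08, ATPAF2, an assembly factor of the mitochondrial ATP synthase, with 1.51 ± 0.08 (SE), adjusted p = 1.04e-11, and SPRY2 as given above. Of the 16 higher genes, 3 lie on chromosome 9. That chromosome holds 571 of the 13831 tested genes with a position, and 120 of the 1476 common higher genes among them. The 4 lower genes with the largest fitted averages were PDPN, C2orf43, PCSK1N and FLI1. They had at most 1 count in any derived line, so the fitted values do not rank them by size.

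Lineage markers moved in a way that the 3 derived lines only partly shared. KRT14, a basal cytokeratin, had 2.70, 3.28 and 1.74 CPM in NeoT, 24.5, 26.8 and 24.6 CPM in T1 and 3.27, 3.15 and 3.56 CPM in CA1, against 427, 469.7 and 455 CPM in A10. Every derived library stood below A10, T1 least so, and the averaged log2 fold change was -6.22 ± 0.07 (SE), adjusted p = 1.94e-20 (edgeR). KRT8, a luminal cytokeratin, had 509, 488 and 422 CPM in NeoT, 1687, 1677 and 1607 CPM in T1 and 3459.7, 3804 and 3833 CPM in CA1, against 132, 154 and 156 CPM in A10. It was above A10 in all derived libraries in the order NeoT, T1, CA1 from low to high, with an averaged log2 fold change of 3.28 ± 0.08 (SE), adjusted p = 8.08e-17 (edgeR). Of 22 basal genes 6 were common lower (27.3%, against 13.0% of all genes) and 3 common higher (13.6%, against 10.5%), with a median averaged log2 fold change of -1.25. Line by line the median over this list was -4.34 in NeoT, 0.27 in T1 and 0.03 in CA1, so in T1 and CA1 it was not below 0. In T1, 12 of the 22 were called higher and 6 lower, and in CA1 10 higher and 10 lower. TP63, the basal transcription factor, had 0 counts in NeoT, at least 2260-fold lower, and fell by 1.35 on the log2 scale in T1 and by 1.97 in CA1. KRT5 was lower by 83.2-fold in NeoT, 1.71-fold in T1 and 12.4-fold in CA1. The 3 higher genes all belong to the attachment of epithelium to its basement membrane: ITGB4, the integrin subunit of hemidesmosomes, with 9411, 9417 and 9236 CPM in NeoT, 3042, 3058 and 2892 CPM in T1 and 8243, 8616 and 8284 CPM in CA1, against 932, 1179 and 1071 CPM in A10, and ITGA3 and LAMB3. ITGB4 lay above A10 in all 9 derived libraries, with T1 the lowest of the derived lines. Of 15 luminal genes 4 were common higher (26.7%), KRT7, KRT8 and XBP1 among them, and 0 common lower. In NeoT, however, 8 of the 15 were called lower and 4 higher, against 0 lower and 14 higher in T1 and 3 lower and 12 higher in CA1.

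Squamous differentiation genes and kallikreins, which mark the outer layers of stratified epithelium, gave common calls in the lower direction only. Of 21 tested, 7 were common lower (33.3%, against 13.0% of all genes) and 0 higher (against 10.5%), and the median averaged log2 fold change was -3.36, or -3.11 with the 10 members at 0 in some line set to their bounds. S100A9, a calcium-binding protein released in inflammation and by stressed keratinocytes, had 47.5, 34.2 and 24.0 CPM in NeoT, 8.90, 8.20 and 5.48 CPM in T1 and 11.1, 14.0 and 9.01 CPM in CA1, against 1147, 1128 and 1252 CPM in A10. Its derived libraries stood far below A10, and the averaged log2 fold change was -6.34 ± 0.18 (SE), adjusted p = 5.37e-10 (edgeR). Its partner S100A8 stood at 2.29 ± 1.17 CPM in NeoT, 0.464 ± 0.201 CPM in T1 and 0.014 ± 0.0242 CPM in CA1, against 362 ± 47.7 CPM in A10 (SD, n = 3 each), and reads of the S100A genes can be shared among relatives. TGM1, the transglutaminase of the cornified envelope, stood at 0.435 ± 0.377 CPM in NeoT, 21.3 ± 2.08 CPM in T1 and 0.479 ± 0.297 CPM in CA1, against 175 ± 13.1 CPM in A10, and SPRR1B, one of its substrates, had 0 counts in NeoT (at least 1729-fold lower) and fell by 1.67 on the log2 scale in T1 and by 3.27 in CA1. The median over the list was -7.98 in NeoT, 0.22 in T1 and -2.85 in CA1, so in T1 it was not below 0.

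Junction and mesenchymal genes separated NeoT from the other derived lines and were mostly not common. Of 26 junction genes, 0 were common higher and 1 common lower, the desmosomal cadherin DSC3, which was lower by 4.08-fold in NeoT, 1.73-fold in T1 and 1.41-fold in CA1. Of 20 mesenchymal genes, 1 was common higher and 2 were common lower. LOX, which crosslinks collagen and elastin, had 629, 654 and 737 CPM in NeoT, 39.0, 48.7 and 41.1 CPM in T1 and 71.1, 72.0 and 73.2 CPM in CA1, against 26.6, 20.9 and 23 CPM in A10. All derived libraries lay above A10, with NeoT far highest. TAGLN (transgelin, an actin-binding protein of contractile cells) had 2.01, 1.85 and 2.55 CPM in NeoT, 1.28, 1.49 and 1.10 CPM in T1 and 1.18, 0.82 and 0.503 CPM in CA1, against 76.8, 82.1 and 83.5 CPM in A10. It was low in all 9 derived libraries and its averaged log2 fold change was -5.95 ± 0.11 (SE), adjusted p = 2.76e-18 (edgeR). Vimentin (VIM), a mesenchymal intermediate filament, was not common: its log2 fold changes were 1.55 in NeoT, -3.01 in T1 and -1.06 in CA1. Summed over the 20 mesenchymal genes, levels ran from 25330 to 29670 CPM in NeoT, 1273 to 1323 CPM in T1 and 1410.0 to 1462 CPM in CA1, against 3850.0 to 4188 CPM in A10. The averaged contrast therefore joins lines that moved opposite ways in these genes.

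Integrins and matrix proteins, the contacts between epithelium and matrix, moved in both directions. Of 14 integrins 4 were common higher (28.6%, against 10.5% of all genes) and 3 common lower (21.4%, against 13.0%). ITGB5, a vitronectin receptor subunit, had 458, 465 and 421 CPM in NeoT, 284, 264 and 271 CPM in T1 and 794, 871 and 866 CPM in CA1, against 136, 146 and 152 CPM in A10. It was above A10 in all derived libraries and highest in CA1, with an averaged log2 fold change of 1.70 ± 0.06 (SE), adjusted p = 1.68e-14 (edgeR). ITGB8, whose protein activates latent TGF-beta, was higher by 1.42-fold in NeoT, 2.39-fold in T1 and 1.60-fold in CA1. ITGA4, a subunit best known from leukocytes, had 8.10 ± 0.48 CPM in A10 and at most 7 counts in a derived line, and ITGAV, the partner of ITGB5 and ITGB8, was lower with log2 fold changes of -0.55 in NeoT, -0.36 in T1 and -0.41 in CA1. Of 24 collagens and laminins 5 were common higher (20.8%) and 3 common lower (12.5%). The higher ones included LAMB2, with log2 fold changes of 2.22 in NeoT, 0.52 in T1 and 0.60 in CA1. COL6A3, also higher, had 7.10 in NeoT, 1.18 in T1 and 1.73 in CA1. LAMA1 was among the lower ones, with -2.97 in NeoT, -3.0 in T1 and -4.25 in CA1.

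Of 21 TGF-beta targets and partners, 4 were common higher (19%, against 10.5% of all genes) and 0 lower (against 13.0%). LTBP3, which holds TGF-beta in its latent form, had 445, 450.4 and 337 CPM in NeoT, 565, 532 and 543 CPM in T1 and 650.2, 673 and 652 CPM in CA1, against 133, 171 and 157 CPM in A10. All derived libraries stood above A10, and the averaged log2 fold change was 1.78 ± 0.09 (SE), adjusted p = 1.18e-11 (edgeR). LTBP2, a related matrix protein, was higher by 2.59-fold in NeoT, 2.34-fold in T1 and 5.44-fold in CA1, the ligand TGFB2 by 6.01-fold in NeoT, 2.24-fold in T1 and 1.63-fold in CA1, and SKIL, a repressor of SMAD proteins that TGF-beta itself induces, by 2.08-fold in NeoT, 2.02-fold in T1 and 3.21-fold in CA1. The median of the list was 0.36.

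**Figure D3:**
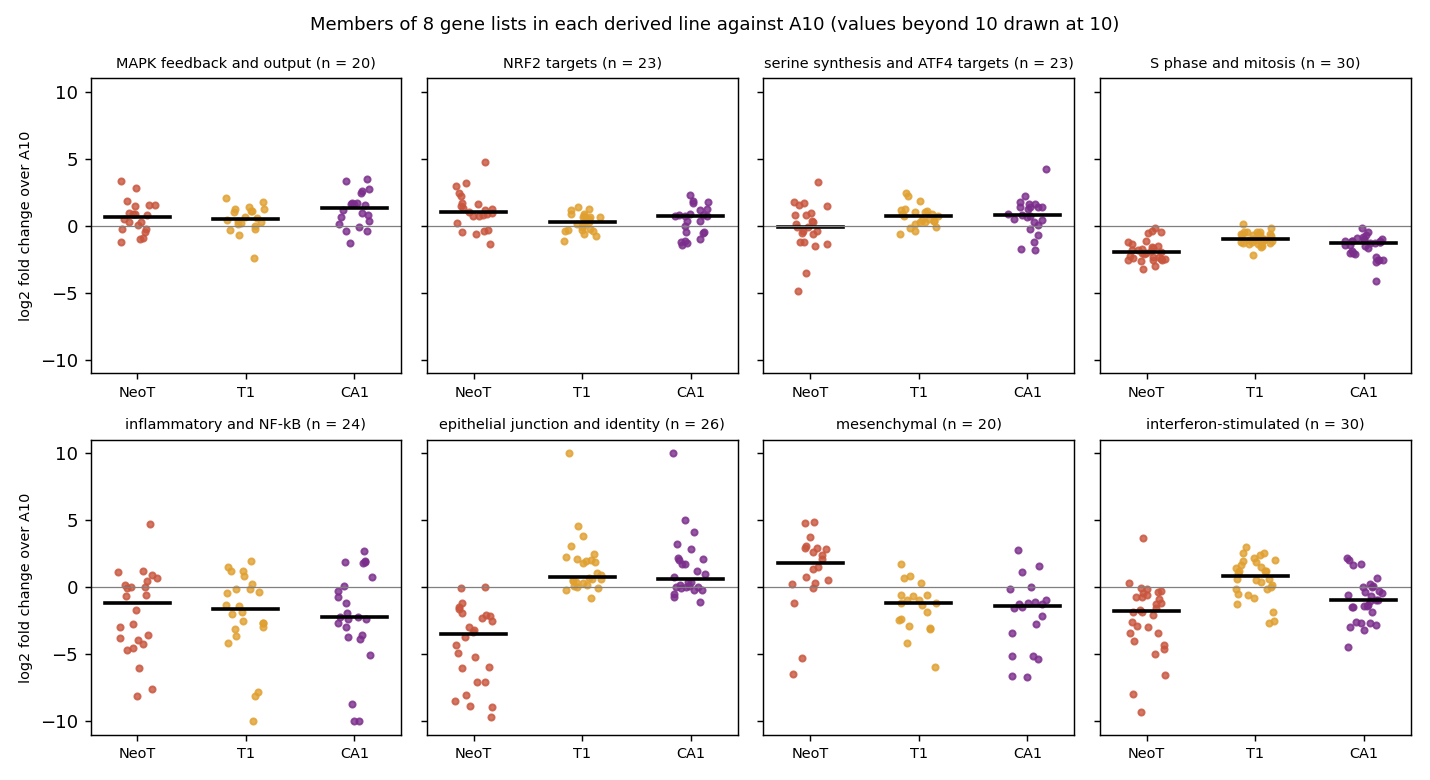
Log2 fold change over A10 of every tested member of 8 lists in NeoT, T1 and CA1 (1 point per gene, values beyond 10 drawn at 10, black bars for the median). The S phase and mitosis medians lie below 0 in each line (-1.97, -1.0 and -1.26), whereas junction medians (-3.5, 0.79 and 0.61) and mesenchymal medians (1.82, -1.17 and -1.36) differ in sign between NeoT and the others.

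Inflammatory genes gave common calls in the lower direction only. Of 24 inflammatory and NF-kB genes, 8 were common lower (33.3%, against 13.0% of all genes) and 0 higher (against 10.5%), with a median averaged log2 fold change of -1.48. CSF3, the granulocyte growth factor G-CSF, had 11.9, 11.4 and 9.46 CPM in NeoT, 0, 0.158 and 0 CPM in T1 and 0 CPM in each library of CA1, against 191, 224 and 217 CPM in A10. It was abundant in A10, low in NeoT and at or near 0 in T1 and CA1, and it was at least 4491-fold lower in CA1. CXCL1, a neutrophil chemokine, had 42.7, 38.1 and 26.2 CPM in NeoT, 15, 16.6 and 16.0 CPM in T1 and 9.46, 8.20 and 7.46 CPM in CA1, against 273, 259.8 and 294 CPM in A10. All derived libraries lay below A10, CA1 lowest, with an averaged log2 fold change of -4.04 ± 0.09 (SE), adjusted p = 1.08e-15 (edgeR). IL1A (interleukin 1 alpha) had 9.38, 8.58 and 9.23 CPM in NeoT, 36.5, 37.7 and 39.5 CPM in T1 and 54.2, 59.7 and 57.8 CPM in CA1, against 230.4, 203 and 207 CPM in A10, and the fall was largest in NeoT. The acute-phase gene SAA1, whose reads can be shared with SAA2, stood at 40.9 ± 12.7 CPM in NeoT, 88.2 ± 5.26 CPM in T1 and 0.892 ± 0.192 CPM in CA1, against 1075 ± 113 CPM in A10 (SD, n = 3 each), and the adhesion receptor gene ICAM1 was lower by 63.0-fold in NeoT, 227-fold in T1 and 2.29-fold in CA1. IL8, a chemokine gene of the same list, was not common: its log2 fold changes were 0.48 in NeoT, -2.95 in T1 and -2.19 in CA1.

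Antigen presentation genes also gave common calls in the lower direction only, with smaller changes. Of 18 MHC class I presentation genes 5 were common lower (27.8%, against 13.0% of all genes) and 0 higher (against 10.5%), with a median of -0.41. HLA-B, an MHC class I heavy chain whose reads can be shared with other HLA genes, had 186, 173 and 159 CPM in NeoT, 53.6, 51.5 and 51.1 CPM in T1 and 237, 267 and 264 CPM in CA1, against 294, 299 and 317 CPM in A10. The derived libraries were all below A10, with T1 lowest and CA1 close to A10. NLRC5, the activator of MHC class I transcription, was lower by 2.29-fold in NeoT, 1.44-fold in T1 and 2.17-fold in CA1. Of 30 interferon-stimulated genes 3 were common lower (against 13.0% of all genes) and 0 higher. IFITM3, an antiviral membrane protein, was lower by 1.61-fold in NeoT, 2.36-fold in T1 and 7.16-fold in CA1. Of 19 complement and coagulation genes 4 were common higher (21.1%, against 10.5% of all genes) and 4 lower (21.1%, against 13.0%). CD55, which shields cells from complement, was higher with log2 fold changes of 2.04 in NeoT, 0.93 in T1 and 2.73 in CA1, as was its fellow protector CD59 with 0.70 in NeoT, 0.83 in T1 and 1.79 in CA1, and THBD (thrombomodulin, an anticoagulant receptor) was lower, with 6.57 ± 1.85, 0.0914 ± 0.0449 and 0.431 ± 0.268 CPM in NeoT, T1 and CA1, against 64.8 ± 5.04 CPM in A10.

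Redox genes, and those that make NADPH, gave more higher than lower calls. Of 23 NRF2 targets, 10 were common higher (43.5%, against 10.5% of all genes) and 3 common lower (13.0%, the share of all genes), with a median of 0.51. The higher ones included genes of the pentose phosphate pathway, which makes NADPH and ribose: PGD was higher by 1.99-fold in NeoT, 1.13-fold in T1 and 1.90-fold in CA1, TALDO1 by 1.69-fold in NeoT, 1.30-fold in T1 and 1.65-fold in CA1 and TKT by 3.19-fold in NeoT, 1.42-fold in T1 and 3.58-fold in CA1. ME1, the cytosolic malic enzyme that also makes NADPH, had 104, 105 and 135 CPM in NeoT, 111, 110.2 and 114 CPM in T1 and 115, 107 and 116 CPM in CA1, against 49.3, 45.6 and 44.8 CPM in A10. All derived libraries lay above A10, with NeoT replicate 3 the highest, an averaged log2 fold change of 1.28 ± 0.08 (SE), adjusted p = 4.47e-11 (edgeR) and an adjusted p among the derived lines of 0.922. ABCC3, an efflux pump for conjugated compounds, had 616 ± 10.7 CPM in NeoT, 298 ± 6.80 CPM in T1 and 548 ± 18.1 CPM in CA1, against 109.6 ± 6.20 CPM in A10 (SD, n = 3 each). The aldo-keto reductase AKR1C2 was higher by 8.07-fold in NeoT, 2.32-fold in T1 and 3.41-fold in CA1 and AKR1C1, which shares much of its sequence, by 26.8-fold in NeoT, 1.68-fold in T1 and 2.29-fold in CA1. GCLC, which starts glutathione synthesis, was among the 3 lower genes with log2 fold changes of -0.39 in NeoT, -0.25 in T1 and -1.25 in CA1, and NQO1, a widely used NRF2 read-out, was not common, with 1.45 in NeoT, -0.77 in T1 and 0.79 in CA1.

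Of 23 serine synthesis and ATF4 target genes, 7 were common higher (30.4%, against 10.5% of all genes) and 2 lower (8.70%, against 13.0%). ATF4 itself, the transcription factor of the amino acid response, was higher by 1.79-fold in NeoT, 1.41-fold in T1 and 1.88-fold in CA1. PYCR1, which makes proline, had 84.8, 79.8 and 62.9 CPM in NeoT, 62.0, 59.1 and 56.4 CPM in T1 and 81.9, 103 and 91.8 CPM in CA1, against 24.2, 30.5 and 27.5 CPM in A10, above A10 in every derived library. STC2, a secreted glycoprotein, was higher by 3.35-fold in NeoT, 2.07-fold in T1 and 3.15-fold in CA1 and DDIT4, an inhibitor of mTORC1, by 3.52-fold in NeoT, 2.32-fold in T1 and 2.70-fold in CA1. The 2 lower genes encode both chains of the large neutral amino acid transporter: SLC7A5 stood at 90.1 ± 3.61 CPM in NeoT, 1714 ± 28 CPM in T1 and 740.4 ± 23.7 CPM in CA1, against 2619 ± 170.4 CPM in A10 (SD, n = 3 each) and SLC3A2 was lower by 2.30-fold in NeoT, 1.29-fold in T1 and 2.33-fold in CA1.

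Lipid genes were led by PPARG, the nuclear receptor that drives fat storage. It had 48.0, 43.3 and 52.8 CPM in NeoT, 35.3, 42.2 and 43.4 CPM in T1 and 99.8, 91.9 and 100.3 CPM in CA1, against 5.13, 4.38 and 5.17 CPM in A10. All derived libraries lay above A10 without overlap, CA1 highest, and the averaged log2 fold change was 3.54 ± 0.10 (SE), adjusted p = 2.12e-15 (edgeR). The acyl-CoA synthetase ACSL1 was higher by 3.09-fold in NeoT, 2.78-fold in T1 and 1.66-fold in CA1. Its relative ACSL5 was higher by 12.4-fold in NeoT, 6.11-fold in T1 and 3.5-fold in CA1. FADS2, a desaturase of polyunsaturated fatty acids, had 13.0, 11.3 and 12.7 CPM in NeoT, 13.8, 14.6 and 14.2 CPM in T1 and 27.5, 27.4 and 27.3 CPM in CA1, against 219.8, 249.8 and 243 CPM in A10. It was low in the derived libraries, with an averaged log2 fold change of -3.82 ± 0.05 (SE), adjusted p = 1.1e-19 (edgeR). In all, 4 of 20 fatty acid and lipid droplet genes were common higher and 2 lower. Of 6 tested adipocyte markers, 3 were common higher (PPARG, PLIN1 and PLIN4), and the 6 summed to 97.1 to 110.4 CPM in NeoT, 92.8 to 101.1 CPM in T1 and 170.5 to 174 CPM in CA1, against 12.7 to 14.4 CPM in A10. The defining adipocyte gene ADIPOQ had 0 counts in all 12 libraries, and LEP had 4 counts, all in NeoT.

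Other metabolic lists were mixed. Of 23 cholesterol synthesis genes 1 was common higher (4.35%, against 10.5% of all genes) and 2 lower (8.70%, against 13.0%). Of 27 glycolysis and hypoxia genes 4 were higher (14.8%) and 2 lower (7.41%). P4HA1, which hydroxylates collagen and is induced by hypoxia, was higher with log2 fold changes of 1.92 in NeoT, 1.20 in T1 and 2.08 in CA1, and NDRG1, also induced by hypoxia, was lower with -1.0 in NeoT, -1.22 in T1 and -1.65 in CA1. Of 6 tested genes of zinc and copper handling, 1 was common lower, MT2A, a metallothionein that binds these metals. Not common were the metallothioneins MT1E, MT1F and MT1X, nor MTF1 and SLC30A1, which are not metallothioneins. MT2A had 3657, 3134 and 4002 CPM in NeoT, 1447, 1976 and 1589.5 CPM in T1 and 350.0, 318 and 425 CPM in CA1, against 5565, 5228 and 6786 CPM in A10. The order of the lines was NeoT, T1, CA1 from high to low, all below A10. Of 21 cytosolic ribosomal protein genes 5 were common higher (23.8%) and 0 lower. RPS6, a protein of the small subunit, was higher by 2.42-fold in NeoT, 2.22-fold in T1 and 2.46-fold in CA1; its gene lies on 9p (chr9:19375715-19380236, GRCh38).

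Of 24 tested WNT and Notch genes 3 were common higher (12.5%, against 10.5% of all genes) and 4 common lower (16.7%, against 13.0%). NOTCH3, a receptor of the Notch pathway, stood at 148, 154 and 115 CPM in NeoT, 76.8, 68.9 and 70.9 CPM in T1 and 197, 207 and 189 CPM in CA1, against 7.77, 11.7 and 8.74 CPM in A10. The derived libraries were all far above A10, T1 lowest among them, with an averaged log2 fold change of 3.76 ± 0.12 (SE), adjusted p = 6.03e-14 (edgeR). FZD7, a WNT receptor, was higher by 2.38-fold in NeoT, 2.56-fold in T1 and 4.37-fold in CA1 and DKK1, a secreted WNT antagonist, by 1.94-fold in NeoT, 2.41-fold in T1 and 4.43-fold in CA1. The 4 lower genes were the ligands WNT3A, WNT5B and WNT10A, each under 3 CPM in A10 on average, and the transcription factor LEF1, which was lower by 2.00-fold in NeoT, 1.49-fold in T1 and 1.98-fold in CA1. WNT3A had 84 counts in A10 and 0 in the derived lines, and its call was lost under DESeq2 (adjusted p = 0.0576; the other alternatives gave 3.66e-07 to 0.183). Of 21 YAP targets 6 were common higher and 4 lower, with a median of -0.07. AXL, a receptor tyrosine kinase, was higher with log2 fold changes of 2.41 in NeoT, 0.62 in T1 and 1.63 in CA1, NT5E, which makes adenosine, with 1.08 in NeoT, 0.91 in T1 and 2.12 in CA1, and IGFBP3 with 0.95 in NeoT, 1.92 in T1 and 4.21 in CA1. Of 20 matrix proteases and inhibitors, MMP1 was the common higher gene, at 0.512 ± 0.162 CPM in NeoT, 0.232 ± 0.131 CPM in T1 and 4.30 ± 0.594 CPM in CA1, against 0.0168 ± 0.029 CPM in A10 (SD, n = 3 each), and MMP9 and MMP14 were lower. MMP14, a membrane-bound collagenase, was lower by 2.15-fold in NeoT, 1.74-fold in T1 and 1.76-fold in CA1.

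Markers of other cell types gave these calls, beside 10.5% of all genes tested common higher and 13.0% common lower. Of 7 tested fibroblast genes 0 were common higher and 2 lower (28.6%), with 6 lower in the average, among them POSTN (periostin), which stood at 0.853 ± 0.481 CPM in NeoT, 0.457 ± 0.321 CPM in T1 and 0 CPM in CA1, against 62.3 ± 2.84 CPM in A10. In NeoT taken alone, 2 of the 7 were called higher and 2 lower. The 7 summed to 650 to 713.9 CPM in NeoT, above the 180.4 to 188.3 CPM of A10. Their sums were 3.95 to 4.95 CPM in T1 and 4.79 to 5.41 CPM in CA1. Of 5 tested leukocyte genes 0 were common, and PTPRC, CD3E and TYROBP had 0 counts in all 12 libraries. Of 3 tested endothelial genes KDR was common lower. The adipocyte markers, with 3 of 6 common higher, are given above.

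**Figure D4:**
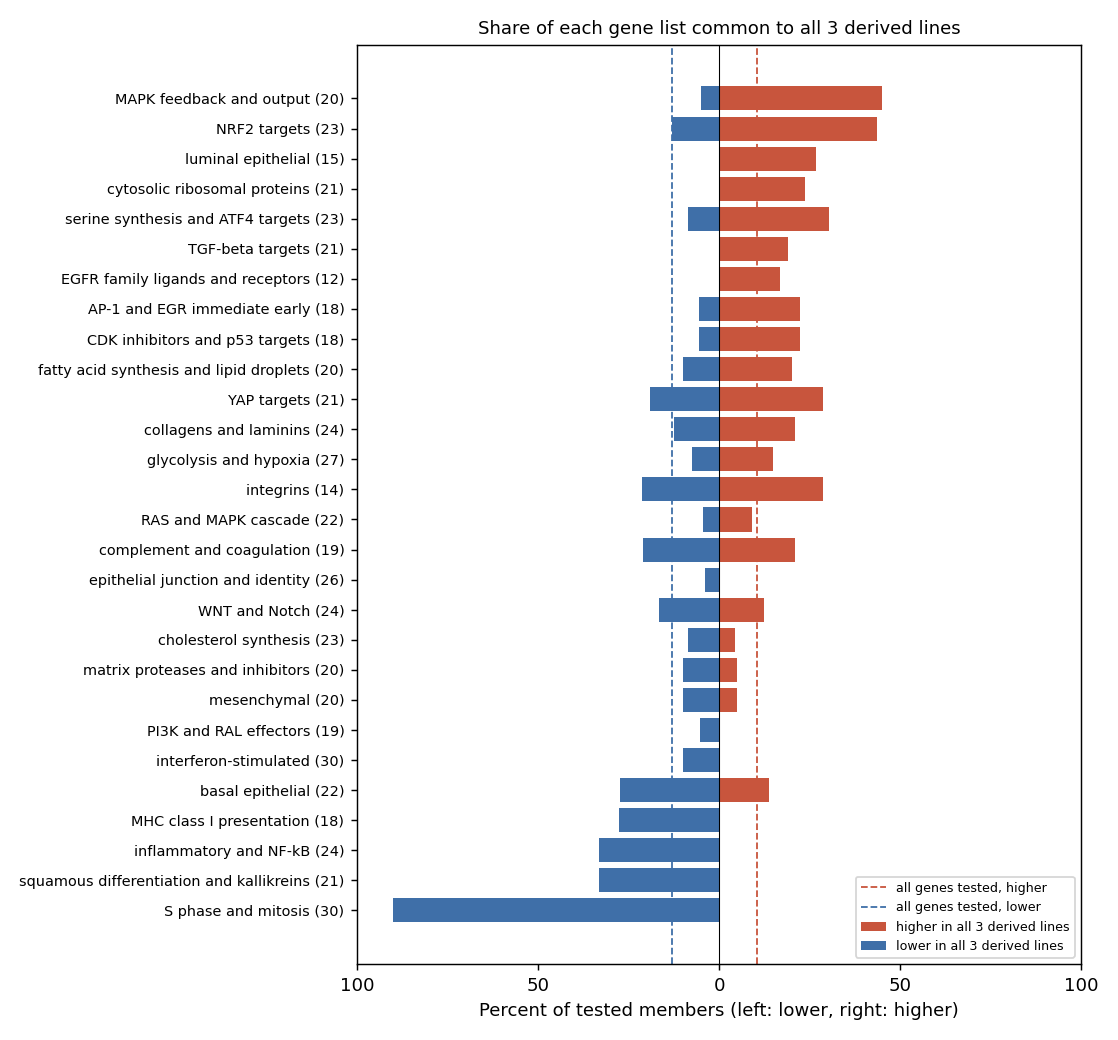
Percent of the tested members of each list that were common higher (right) or common lower (left), for lists with at least 10 tested genes, with dashed lines at the shares of all genes tested (10.5% and 13.0%). S phase and mitosis stands at 90.0% lower, and MAPK feedback (45%) and NRF2 targets (43.5%) have the highest shares of higher genes.

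An averaged call did not always mean a shared one. Of genes called higher in the average, 34.6% were common, and of genes called lower, 35.8%. In 574 of the higher calls (13.1%) and 841 of the lower ones (16.0%), at least 1 derived line was called the other way. The 4 genes per direction with the largest averages among these are given as examples. TCN1, a vitamin B12 carrier, CALB2 (calretinin, a calcium-binding protein), PADI1, which converts arginine to citrulline in proteins, and SLC6A14, an amino acid transporter, were high in T1 and CA1 and lower in NeoT than in A10. SLC6A14 stood at 0.136 ± 0.121 CPM in NeoT, 42.2 ± 2.72 CPM in T1 and 109.9 ± 3.17 CPM in CA1, against 0.803 ± 0.218 CPM in A10 (SD, n = 3 each) and CALB2 at 0.0725 ± 0.0909 CPM in NeoT, 47.7 ± 1.61 CPM in T1 and 321 ± 11.4 CPM in CA1, against 0.31 ± 0.192 CPM in A10. PADI1 had 5 counts in NeoT, all in replicate 1, and without that library its averaged call was lost (adjusted p = 0.988; the other alternatives gave 6.41e-44 to 0.984). KLK7, a skin protease, had 0 CPM in each library of NeoT, 689.6, 725 and 719 CPM in T1 and 0.169, 0.0863 and 0.251 CPM in CA1, against 121, 115 and 117 CPM in A10. It was far above A10 in T1 and at or near 0 in NeoT and CA1, and with a single mean for the 9 derived libraries its log2 fold change was 1.01, against -7.12 in the equal-weight average. PRSS21, APOBEC3F and MYEF2 had 0 counts in NeoT and T1 and were higher in CA1 than in A10, by 2.52-fold, 2.85-fold and 1.76-fold.

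Common genes were unevenly spread over the chromosomes, placed by RefSeq positions on GRCh38 for 13831 of the tested genes. Chromosome 9 had the highest share of common higher genes, 21% of 571 tested, and chromosome 1 the highest share of common lower ones, 27.3% of 1437, against 10.7% and 13.4% of all placed genes. Within them, windows were picked out after their values had been seen. On chromosome 9 from the first base to 40 Mb, 62 of 143 genes were common higher (43.4%) and 5 common lower. On chromosome 1 between 150 and 250 Mb, 276 of 588 were common lower (46.9%) and 13 common higher, and S100A7, S100A8, S100A9 and CENPF lie there. On chromosome 8 between 100 and 130 Mb, 36 of 76 were common lower (47.4%), and on chromosome 17 between 10 and 20 Mb, 29 of 76 were common higher (38.2%). Outside these 4 windows the shares were 10.6% higher and 11.9% lower of 12948 genes.

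In the chromosome 1 window the 3 derived lines had almost the same median log2 fold change, -0.79 in NeoT, -0.72 in T1 and -0.76 in CA1, and in the chromosome 9 window as a whole 0.64 in NeoT, 0.72 in T1 and 0.72 in CA1. Over its first 10000000 bases (31 genes) the lines differed more, at 0.08 in NeoT, 1.09 in T1 and 1.15 in CA1. Parts of the chromosome 1 window were not all alike. From base 200000001 to 210000000 (89 genes) the medians were -1.35 in NeoT, -0.90 in T1 and -0.69 in CA1. From base 220000001 to 230000000 (66 genes) they were -1.058, -1.015 and -1.046 in the same order. The chromosome 8 window had -1.02 in NeoT, -0.56 in T1 and -0.59 in CA1, and the chromosome 17 window 0.70, 0.47 and 0.81. MCF10A is known to lack the CDKN2A and CDKN2B genes on 9p21, and here both had 0 counts in all 12 libraries. Of 6 tested neighbours, 5 were common higher (MTAP, DMRTA1, KLHL9, FOCAD and IFNE). MTAP, a methionine salvage enzyme beside CDKN2A (chr9:21802636-21941115, GRCh38), had 2.31, 1.08 and 1.86 CPM in NeoT, 0.391, 0.76 and 0.572 CPM in T1 and 2.76, 4.14 and 3.14 CPM in CA1, against 0.101, 0.0409 and 0.144 CPM in A10. It was near 0 in A10 and low in all derived libraries. KLHL9, a ubiquitin ligase adaptor, stood at 39.6, 48.5 and 56.9 CPM in NeoT, 60.6, 65.5 and 66.5 CPM in T1 and 41.6, 47.3 and 41.4 CPM in CA1, against 23.3, 19.4 and 21.5 CPM in A10, above A10 in every derived library. FOCAD, a neighbour, was higher by 1.80-fold in NeoT, 2.60-fold in T1 and 1.69-fold in CA1. Whether copy number differs between the lines was not tested. RPS6 on chromosome 9 and CENPF and S100A9 on chromosome 1 moved in the same direction as most common genes of their windows. Their changes, given above, were larger than the median averaged changes of these windows, -0.74 on chromosome 1 and 0.64 on chromosome 9. Not every gene there moved in that direction: 13 genes of the chromosome 1 window were common higher and 5 of the chromosome 9 window common lower.

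**Figure D5:**
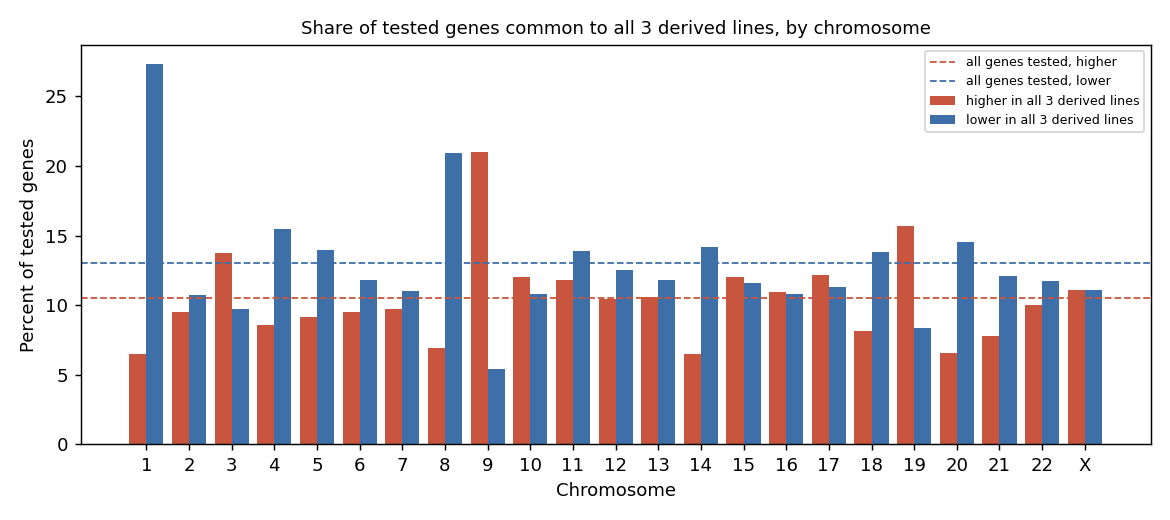
Percent of tested genes on each chromosome that were common higher (red) or common lower (blue) in the 3 derived lines, with dashed lines at the shares of all genes tested (10.5% and 13.0%). The highest red bar is chromosome 9 (21%) and the highest blue bar chromosome 1 (27.3%).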

How the data were processed

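RNA-seq libraries of 4 cell lines, 3 per line, were analysed from 1 gene table. Per the labels' protocols, RNA came from a workflow that also yields DNA and protein, was treated with DNase I, and went into libraries with the NEBNext Ultra RNA kit, which the labels do not state to mark strand, so reads of a gene and an antisense partner cannot be told apart. The deposited values are estimated counts per gene, made by the authors with Salmon, per the table's name, and not all whole (10.1% were not). The submitters' processing notes name GRCh38 and limma, with no role or version, and the annotation and the version of Salmon are not given in the sources used here. Estimated counts divide reads between similar genes, which makes values of close relatives uncertain.

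Counts were rounded. Of 29744 rows, 10311 then had no count in any library, and 14417 passed edgeR's filterByExpr. The fit used TMM factors, a mean per line, robust quasi-likelihood dispersions over all 12 libraries (edgeR 4.0.16, R 4.3.3) and Benjamini-Hochberg adjustment over all genes tested. The averaged contrast was (NeoT + T1 + CA1)/3 - A10. A gene was common if its adjusted p was under 0.05 with the same sign in each line against A10. Differences among derived lines were tested with an F test. Names were matched to RefSeq for 23171 rows by symbol and 1787 by synonym, 4786 were unmatched, and 114 rows share a name. The members and the gene lists were chosen with earlier results of these data known. Named genes were HRAS and the 12 per direction with the largest smallest change. Added to them were the 4 per direction with the largest averages among 2-fold genes not passing the F test among derived lines. The 4 per direction opposed in a line were also named, as were up to 3 leading members of each list with those that define it. Windows on chromosomes were chosen after their values were seen. The test was checked on simulated data. Alternatives covered normalization, filters, DESeq2 1.42.0, limma-voom (limma 3.58.1), glmTreat, other units of replication, a replicate block and left-out libraries. Figures used matplotlib 3.10.9. Replicate numbers did not pair the libraries, since deviations of same-numbered libraries correlated by only -0.069 to 0.088. Some members of the lists are counted but not reported here by name.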

Additional observations from a re-analysis of the deposited data

Results flagged for a closer look

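Among genes common to the 3 derived lines, 2790 also differed among NeoT, T1 and CA1 by edgeR's F test, and 1415 genes called in the average were called the other way in at least 1 derived line.

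Of 139 common genes whose changes the report describes, 116 differed among the derived lines by that test. Values are given here for HRAS, the 12 genes per direction picked by their smallest change and those opposed in a line. The adjusted p was under 0.05 for HRAS (1.22e-08), EPDR1 (2.37e-07), LY75 (1.77e-07), GSPT2 (9.84e-06), LAMA4 (7.72e-13), GJA1 (1.55e-11), TNXB (5.31e-06), ATG9B (1.11e-09), C9orf64 (0.0125), MUC5B (1.23e-08), DHRS9 (5.32e-14), GDA (6.2e-07) and PLIN1 (3.14e-08) among the higher genes. Of the 12 lower genes picked in that way, which lie at or near 0 in the derived lines, it was under 0.05 for FGFR3 (0.035), held by 2 NeoT libraries with 4 counts in all. Genes that moved in opposite directions were chosen because a derived line was called against the average. A difference among the derived lines was thus built into the choice, and the same test is no separate evidence for it. For these genes the test gave 8.38e-17 for TCN1, 6.72e-19 for CALB2, 4.26e-17 for PADI1 and 8.35e-17 for SLC6A14. The values were 7.4e-21 for KLK7, 7.34e-14 for PRSS21, 3.76e-14 for APOBEC3F and 6.14e-12 for MYEF2.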

How the results depend on the processing

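The counts depended most on the size of change tested and on the unit of replication. Against a 2-fold change (glmTreat), 790 genes were higher and 1486 lower in the average, and 203 higher and 398 lower genes were common, also among those counted as at least 2-fold. With line means as the unit, limma called 0 higher and 0 lower (230 and 430 at an unadjusted p under 0.05), and with 1 mean for the 9 derived libraries 1375 and 1541; with that single mean KLK7 (1.01, adjusted p = 0.821), CDH1 (0.10), ESR1 (0.00098) and VIM (0.24) reversed without a call (edgeR). EGFR, not called in any of these fits, also reversed there (0.022) and ran from -0.078 to 0.087 with 1 library left out. Leaving out 1 library at a time gave 3892 to 4602 higher and 4846 to 5568 lower genes in the average, 1332 to 1684 and 1663 to 2119 common ones, 361 to 394 and 609 to 671 of them at least 2-fold, and 11682 to 12424 differing among the derived lines. A replicate block, although the numbers do not pair the libraries, gave 4266 higher and 5171 lower in the average, 1461 and 1838 common, 371 and 644 at least 2-fold, and 11857 differing. RLE and upper-quartile factors, no or a stricter filter, DESeq2, limma-voom, fits of each line with A10 alone, removal of rRNA genes and joint removal of T1 replicate 1 and NeoT replicate 3 kept every count within 1.5 times; common counts ran from 1408 to 1585 higher and 1808 to 2115 lower. Of 158 genes whose changes the report describes and that were called in the average, all 158 lost that call with line means, 38 with 1 derived mean and 33 under glmTreat. Genes at 0 in a line have a direction and a bound, not a size. The 3 lines share 1 ancestor, and genes under 3 counts over a line were not detectable at this depth.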
